A study of Mus musculus with 6 samples.

Results

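Genes of macrophages and of microglia, the resident macrophages of the nervous system, were followed in the outer eye wall of aged 5XFAD mice. A list of 45 symbols was taken, and each was matched to probe sets that the platform annotation names with exactly 1 symbol, and where a gene had several, the one brightest on average across the 6 arrays was kept. In this way 43 of the 45 were measured, among 22180 genes in all. Spp1 and Lpl2 matched no such probe set and were not analysed here. Each sample was total RNA from the outer eye wall of mice 12 months old, that is the retinal pigment epithelium (RPE) together with the choroid and the sclera: 3 from mice heterozygous for the 5XFAD transgenes and 3 from non-transgenic wild-type littermates, with 1 array per sample and no treatment in either group. The 5XFAD line carries mutant human amyloid precursor protein and presenilin transgenes under the neuronal Thy1 promoter, so that cells of the outer eye wall need not express them. Whether samples stand for separate animals is not stated in the labels, and p-values reflect only how far these 6 samples scatter, part of which may be technical. All levels are log2 intensities, given as mean ± SD with n = 3 per group, and each difference is 5XFAD minus wild type on the log2 scale, ± SE from limma.

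Macrophages of the choroid and microglia take up debris through receptors that signal by a shared tyrosine motif, the ITAM. Trem2 and several Fc receptors lack this motif and borrow it from small adaptor proteins encoded by Tyrobp and Fcer1g, which pass the signal to the kinase Syk. In the brain of amyloid mouse models, microglia that gather at plaques are known to raise genes such as Itgax, Clec7a, Cst7 and Gpnmb through Trem2 and Tyrobp and to lower genes of the resident state such as P2ry12 and Tmem119. The transcription factor PU.1, encoded by Spi1, acts on many macrophage promoters through a purine-rich site with a GGAA core.

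The promoters of 5 members are shown, chosen after their values were seen. Fcer1g, Mpeg1, Itgam and Gpnmb were 4 members with an unadjusted p under 0.05 whose groups stood apart, with 5XFAD higher, and P2ry12 is a gene of the resident state. Each sequence is the 250 bases before the annotated start, 5′ to 3′ on the strand of the gene, from RefSeq (GRCm38.p6). Capitals mark GAGGAA or GGAAGT on either strand, the overlapping left and right parts of the PU.1 site GAGGAAGT.
Fcer1g (chr1:171234350-171234599, minus strand): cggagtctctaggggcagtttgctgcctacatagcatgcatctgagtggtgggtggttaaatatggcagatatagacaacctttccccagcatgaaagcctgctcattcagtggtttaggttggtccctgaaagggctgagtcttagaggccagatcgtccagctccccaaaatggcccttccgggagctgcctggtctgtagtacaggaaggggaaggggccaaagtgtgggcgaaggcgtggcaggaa
Mpeg1 (chr19:12460520-12460769, plus strand): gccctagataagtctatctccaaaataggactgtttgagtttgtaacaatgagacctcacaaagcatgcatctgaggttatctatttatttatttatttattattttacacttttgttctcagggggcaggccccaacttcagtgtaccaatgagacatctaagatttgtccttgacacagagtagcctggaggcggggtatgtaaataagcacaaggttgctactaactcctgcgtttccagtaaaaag
Itgam (chr7:128062390-128062639, plus strand): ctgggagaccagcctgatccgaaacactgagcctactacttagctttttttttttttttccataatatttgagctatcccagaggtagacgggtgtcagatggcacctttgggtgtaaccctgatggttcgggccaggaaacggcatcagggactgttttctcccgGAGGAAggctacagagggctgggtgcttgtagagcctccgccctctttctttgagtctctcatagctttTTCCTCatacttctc
Gpnmb (chr6:49036268-49036517, plus strand): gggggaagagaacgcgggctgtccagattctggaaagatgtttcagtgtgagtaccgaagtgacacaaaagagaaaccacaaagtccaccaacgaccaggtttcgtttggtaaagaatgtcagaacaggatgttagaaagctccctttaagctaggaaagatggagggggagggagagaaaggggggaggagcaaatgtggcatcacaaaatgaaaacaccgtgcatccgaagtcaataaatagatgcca
P2ry12 (chr3:59262986-59263235, minus strand): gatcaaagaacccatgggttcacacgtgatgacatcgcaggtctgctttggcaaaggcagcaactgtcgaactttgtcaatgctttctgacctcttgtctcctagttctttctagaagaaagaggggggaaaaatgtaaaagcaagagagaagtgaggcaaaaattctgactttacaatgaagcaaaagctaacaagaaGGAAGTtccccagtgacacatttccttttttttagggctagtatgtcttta

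Itgam held GAGGAA on both strands, at bases -84 to -79 and -15 to -10 from the start, and P2ry12 held GGAAGT at -51 to -46. The letters searched do not occur in the windows of Fcer1g, Mpeg1 and Gpnmb. Among measured members 31 of 43 had an entry, with 38 windows. GAGGAA was present in 14 of the 38 windows (36.8%) and in 23.3% of all 32851 windows, GGAAGT in 17 (44.7%) and in 19.7%, and the whole GAGGAAGT in 1 (2.63%) and in 2.44%. These are matches of letters and were not tested as binding sites.

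In median level and in correlation the arrays were alike, though lists for single tissues differed between them, as given below. Median log2 intensity lay between 5.59 and 5.71, and pairs of arrays correlated at 0.981 to 0.990 within a genotype and at 0.983 to 0.990 across genotypes. Of 22180 genes, 5 (0.0225%) passed a Benjamini-Hochberg adjusted p of 0.05 in limma, all of them higher in 5XFAD. In the labelled tissue, a list of 10 RPE genes had means of 10.57 to 10.73 in 5XFAD and 10.96 to 11.08 in wild type. Detection calls were not used. By mean level 10 of the 43 members lay in the dimmest 50% of genes and 2, Sall1 and Timd4, in the dimmest 30%, and background compresses the differences of dim genes.

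Differences in macrophage genes between the genotypes were small, and none of the 43 members passed the adjusted threshold, Fcer1g coming closest (limma, Benjamini-Hochberg adjusted p = 0.59). Most differences were small and positive: 33 of 43 (76.7%) were above 0, where 47.2% of all genes were, with a median of 0.12 against -0.01 over all genes. The largest were 0.51 for Fcer1g, 0.39 for Clec7a and 0.34 for Lilrb4a, and the most negative were -0.27 for Lyve1, -0.22 for Marco and -0.21 for Csf1r. At an unadjusted p under 0.05 in limma there were 7 members (16.3%), 6 higher and 1 lower. Over all genes 6.28% were under it, 2.89% higher and 3.39% lower. The 3 arrays of each group stood apart in 12 members (27.9%), 8 higher and 4 lower, where 11.3% of all genes did so, 4.72% higher and 6.62% lower. Members were chosen with earlier results of these data known, so these shares describe the list and were not tested. They are also not separate observations, since 5XFAD replicate 1 was the highest array in 31 of the 43. Without 5XFAD replicate 1 the median of the members was 0.06, 28 were positive and 2 had an unadjusted p under 0.05. The last count was also 2 without wild type replicate 2 and 2 without wild type replicate 3, and it was 3 after median centring and 4 with skeletal muscle, the mean of a list of its genes, as a covariate (limma). In whole tissue a change in the number of cells and a change in RNA per cell cannot be told apart.

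**Figure D1:**
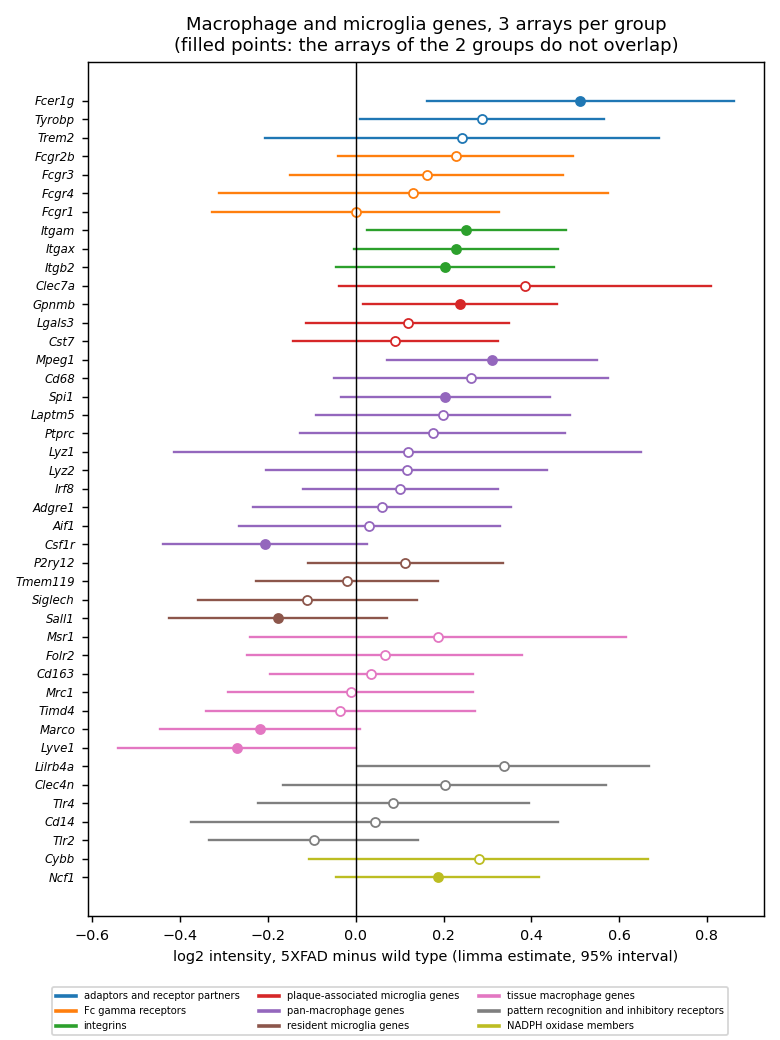
Log2 difference between 5XFAD and wild type for the 43 measured members (horizontal axis), with the limma 95% interval as a line, coloured by role. Filled points mark the 12 members whose 3 arrays per group did not overlap; differences ran from -0.27 for Lyve1 to 0.51 for Fcer1g.

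The adaptor genes stood among the highest members. Fcer1g (probe set 17229658), which encodes the gamma chain of Fc receptors, had levels of 10.84, 10.66 and 10.21 in the 5XFAD arrays and 10.11, 9.99 and 10.07 in wild type. The groups stood apart, with 5XFAD replicate 3 closest to wild type, and the means were 10.57 ± 0.33 and 10.06 ± 0.06. The difference was 0.51 ± 0.16, a 1.43-fold level (limma, unadjusted p = 0.0090, Benjamini-Hochberg adjusted p = 0.59). Tyrobp, whose product DAP12 serves Trem2 and related receptors, was at 9.23, 9.12 and 8.91 in 5XFAD and at 8.97, 8.72 and 8.71 in wild type. The groups overlapped, since 5XFAD replicate 3 lay below wild type replicate 1. Its difference was 0.29 ± 0.12, a 1.22-fold level (limma, unadjusted p = 0.044, Benjamini-Hochberg adjusted p = 0.78). Trem2, the lipid-sensing receptor that signals through DAP12, was at 9.004, 8.73 and 8.18 in 5XFAD and 8.62, 8.34 and 8.23 in wild type. The lowest of the 6 arrays was a 5XFAD array, and the difference of 0.24 ± 0.20 (95% interval -0.21 to 0.69) was 0.06 without 5XFAD replicate 1.

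The members most like Tyrobp over the 6 arrays, by Pearson's r, were Cd68 (0.96), Clec7a (0.94), Fcer1g (0.93), Mpeg1 (0.92) and Gpnmb (0.92). Spearman's rho with Tyrobp was 0.94, 1, 0.89, 0.77 and 0.94 in the same order. These values describe 6 arrays that share the 2 genotypes and their tissue make-up. Taken on deviations from the group means, r was 0.95, 0.92, 0.82, 0.83 and 0.85. The order of members was then different. Tlr4 (0.97), Trem2 (0.95), Lyz1 (0.95) and Cd14 (0.91) lay above Fcer1g, Mpeg1 and Gpnmb by that measure.

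Among the Fc gamma receptors, which bind the tails of antibodies, 0 of 4 had an unadjusted p under 0.05 in limma. The inhibitory receptor gene Fcgr2b was at 9.69 ± 0.17 in 5XFAD and 9.46 ± 0.11 in wild type, a difference of 0.23 ± 0.12. The activating receptor genes Fcgr3 and Fcgr4, which use the Fcer1g chain, differed by 0.16 ± 0.14 and 0.13 ± 0.20, and the high-affinity receptor gene Fcgr1 by -0.00046 ± 0.14. Fcgr4 was at 6.20, 5.68 and 5.29 in 5XFAD against 5.55 to 5.63 in wild type. Its 5XFAD arrays thus lay on both sides of a narrow wild-type range, and without 5XFAD replicate 1 the difference was -0.11. Fcgr2b and Fcgr3 are close in sequence, and their signals may be shared in part.

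The 3 leukocyte integrin genes were higher on every 5XFAD array than on any wild-type array, as were 4.72% of all genes. Itgam, the alpha M chain of complement receptor 3 (CD11b), was at 7.64, 7.51 and 7.60 in 5XFAD and 7.41, 7.35 and 7.23 in wild type. The difference was 0.25 ± 0.10, a 1.19-fold level (limma, unadjusted p = 0.033, Benjamini-Hochberg adjusted p = 0.74), and ran from 0.20 to 0.29 as each array was left out. Itgax, the alpha X chain (CD11c) of dendritic cells and of plaque-associated microglia, was at 8.14, 8.14 and 8.25 in 5XFAD and 8.07, 7.91 and 7.87 in wild type. It differed by 0.23 ± 0.10 (limma, unadjusted p = 0.053, Benjamini-Hochberg adjusted p = 0.80). Itgb2, the beta chain that pairs with both, was at 8.94, 8.67 and 8.75 against 8.60, 8.49 and 8.67, a difference of 0.20 ± 0.11. For Itgb2 the lowest 5XFAD array and the highest wild-type array both rounded to 8.67.

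**Figure D2:**
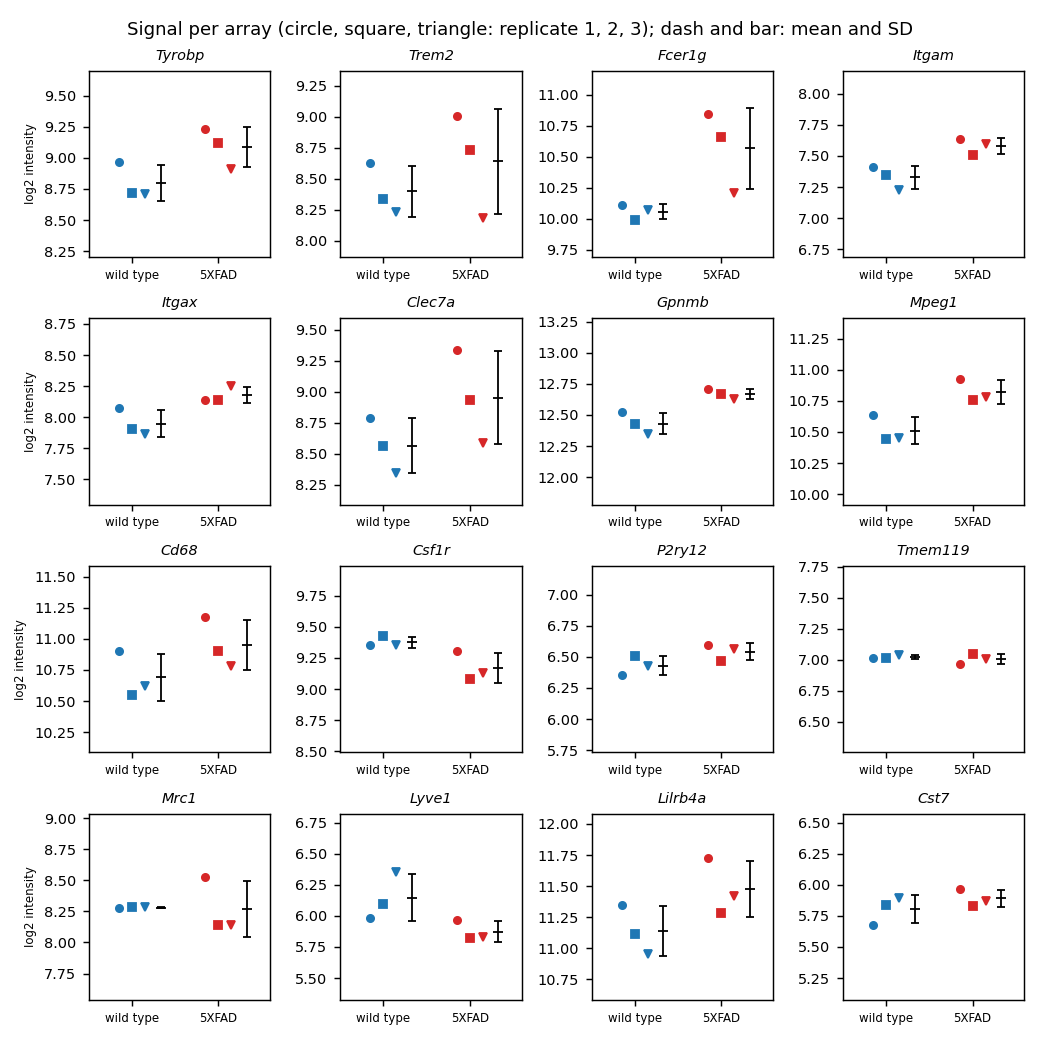
Log2 intensity of 16 members on each array, wild type in blue and 5XFAD in red, with the mean and SD of the 3 arrays beside them. Fcer1g, Itgam, Itgax, Gpnmb and Mpeg1 stand apart upward and Csf1r and Lyve1 downward, whereas Tmem119 lies between 6.96 and 7.05 on all arrays.

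All 4 measured genes of plaque-associated microglia had a positive difference, with a median of 0.18. Clec7a, encoding the glucan receptor dectin-1, had the largest: its levels were 9.33, 8.94 and 8.59 in 5XFAD and 8.79, 8.56 and 8.35 in wild type. Only 5XFAD replicates 1 and 2 lay above the wild-type range, and the difference was 0.39 ± 0.19 (limma, unadjusted p = 0.069, Benjamini-Hochberg adjusted p = 0.83). Leaving out 5XFAD replicate 1 gave 0.20 for Clec7a, and leaving out 5XFAD replicate 3 gave 0.57. Gpnmb, a glycoprotein of lysosomes that melanosomes also carry, was at 12.71, 12.66 and 12.63 in 5XFAD and 12.52, 12.43 and 12.35 in wild type. These groups stood apart, with a difference of 0.24 ± 0.10 (limma, unadjusted p = 0.037, Benjamini-Hochberg adjusted p = 0.76). Pigment cells also express Gpnmb. The list of 8 pigment genes had a median difference of 0.05, with 6 positive, and ran from -0.19 for Mitf to 0.25 for Mlana. Pmel and Mlana, at 0.24 ± 0.12 and 0.25 ± 0.11, were close to the Gpnmb value. List means were 10.74 to 11.04 in 5XFAD and 10.71 to 10.93 in wild type, and the part of the pigment list in the Gpnmb value was not tested. Lgals3, encoding galectin-3, was at 8.54, 8.46 and 8.34 against 8.36, 8.24 and 8.39, a difference of 0.12 ± 0.10. Epithelial cells make galectin-3 as well, and the list of 11 surface epithelium genes was higher on all 5XFAD arrays, with means of 6.48 to 7.12 against 5.74 to 5.78 in wild type, with 8 of the 11 positive and 4 passing over all genes (limma, lowest Benjamini-Hochberg adjusted p = 0.0018). Its part in the Lgals3 value was not tested. Cst7, the lysosomal protease inhibitor cystatin F, was at 5.97, 5.83 and 5.87 against 5.68, 5.84 and 5.89, a difference of 0.09 ± 0.10 (95% interval -0.14 to 0.32), with overlapping arrays.

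Of the 11 genes common to most macrophages, 10 had a positive difference and 1, Csf1r, a negative one. Mpeg1, encoding the pore-forming protein perforin-2, was at 10.93, 10.76 and 10.78 in 5XFAD and 10.64, 10.44 and 10.45 in wild type. The groups stood clear of each other, and the difference of 0.31 ± 0.11 was a 1.24-fold level (limma, unadjusted p = 0.016, Benjamini-Hochberg adjusted p = 0.665). As each of the 6 arrays was left out, Fcer1g had an unadjusted p under 0.05 in limma every time, and Mpeg1 in all cases but without 5XFAD replicate 1. Cd68, a lysosomal membrane protein, was at 11.17, 10.90 and 10.78 against 10.90, 10.54 and 10.62 and differed by 0.26 ± 0.14, with overlap. Spi1, the gene of PU.1, was at 7.38, 7.27 and 7.11 against 7.02, 7.04 and 7.09, and its difference of 0.20 ± 0.11 came with groups that only just stood apart.

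Csf1r, the receptor on which macrophages depend for survival, went the other way. Its levels were 9.31, 9.08 and 9.13 in 5XFAD and 9.35, 9.43 and 9.35 in wild type, so that all 5XFAD arrays were lower, and the difference was -0.21 ± 0.10 (limma, unadjusted p = 0.075, Benjamini-Hochberg adjusted p = 0.84). The classic microscope markers had differences close to 0. Aif1, which encodes Iba1, was at 6.11, 6.18 and 5.84 against 5.81, 6.13 and 6.10, a difference of 0.03 ± 0.13 with 95% interval -0.27 to 0.33. Adgre1, which encodes the antigen F4/80, was at 8.41, 8.22 and 7.94 against 8.05, 8.18 and 8.16, a difference of 0.06 ± 0.13 with 95% interval -0.23 to 0.35. Both changed sign without 5XFAD replicate 1, at -0.002 for Aif1 and -0.05 for Adgre1. Differences were 0.18 ± 0.13 for the leukocyte phosphatase gene Ptprc, 0.20 ± 0.13 for the lysosomal gene Laptm5 and 0.10 ± 0.10 for the transcription factor gene Irf8. A second, dimmer probe set of Irf8 gave 0.10 ± 0.12. The lysozyme genes Lyz2 (12.99, 12.62 and 12.86 against 12.89, 12.47 and 12.76) and Lyz1 (7.98, 7.72 and 6.96 against 7.70, 7.32 and 7.29) both differed by 0.12, with SE of 0.14 and 0.24. Both overlapped between the groups, and without 5XFAD replicate 1 the difference of Lyz1 was -0.09. As near-identical copies they may share signal.

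Genes of resident microglia showed no common direction. P2ry12, the ADP receptor, was at 6.59, 6.46 and 6.57 in 5XFAD and 6.36, 6.51 and 6.43 in wild type, a difference of 0.11 ± 0.10 with 95% interval -0.11 to 0.33. Tmem119, a membrane protein used to mark microglia, was at 6.96, 7.05 and 7.01 against 7.02, 7.01 and 7.04, a difference of -0.02 ± 0.09 with 95% interval -0.23 to 0.19. Neither gene separated the groups. Siglech, a receptor gene also expressed by plasmacytoid dendritic cells, was at 5.34, 5.20 and 5.31 against 5.30, 5.32 and 5.57, a difference of -0.11 ± 0.11. Sall1, a transcription factor gene that is also active outside microglia, was dim, at 4.57, 4.35 and 4.64 against 4.65, 4.76 and 4.68. Its 5XFAD arrays were all lower, by -0.18 ± 0.11 in the mean (limma, unadjusted p = 0.14, Benjamini-Hochberg adjusted p = 0.91), and by -0.09 without 5XFAD replicate 2.

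Genes of perivascular and other tissue macrophages were likewise split, with 3 of 7 positive and a median of -0.01. Lyve1, a hyaluronan receptor of these cells and of lymphatic vessels, was at 5.97, 5.83 and 5.83 in 5XFAD and 5.99, 6.09 and 6.35 in wild type. The groups stood apart by a narrow gap, and the difference of -0.27 ± 0.12, a 0.829-fold level, was the single negative one under an unadjusted p of 0.05 (limma, unadjusted p = 0.0499, Benjamini-Hochberg adjusted p = 0.80). Without wild type replicate 3, the highest of the 6 arrays, it was -0.17 (limma, unadjusted p = 0.18). The unadjusted p was 0.068 with the replicate number as a block and 0.054 with a trended and robust prior (limma). The scavenger receptor gene Marco was at 5.53, 5.72 and 5.71 against 5.89, 5.81 and 5.91, also apart, with a difference of -0.22 ± 0.10. Mrc1, the mannose receptor gene, was at 8.53, 8.14 and 8.14 in 5XFAD around a wild-type range of 8.28 to 8.29, and differed by -0.01 ± 0.12. Cd163, encoding the receptor for haemoglobin bound to haptoglobin, was at 5.13, 5.31 and 5.07 against 5.11, 5.14 and 5.15 and differed by 0.04 ± 0.10. The folate receptor gene Folr2, the phosphatidylserine receptor gene Timd4 and the scavenger receptor gene Msr1 differed by 0.07 ± 0.14, -0.03 ± 0.14 and 0.19 ± 0.19, each with overlapping arrays.

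Receptors that sense microbes and damage, and the oxidase that answers them, gave mostly small positive values. Lilrb4a, an inhibitory receptor gene, was at 11.73, 11.28 and 11.42 in 5XFAD and 11.35, 11.12 and 10.95 in wild type. The groups overlapped at 5XFAD replicate 2, and the difference was 0.34 ± 0.15, a 1.26-fold level (limma, unadjusted p = 0.047, Benjamini-Hochberg adjusted p = 0.79). A second probe set that names Lilrb4a together with its neighbouring paralog gave 0.47 ± 0.18 and is not assigned to either gene. The dectin-2 gene Clec4n differed by 0.20 ± 0.16, the lipopolysaccharide co-receptor gene Cd14 by 0.04 ± 0.19, and the Toll-like receptor genes Tlr4 and Tlr2 by 0.09 ± 0.14 and -0.10 ± 0.11, all with overlap. Cybb, the catalytic subunit of the phagocyte NADPH oxidase, was at 10.19, 9.61 and 9.56 against 9.66, 9.52 and 9.34, a difference of 0.28 ± 0.17 with overlapping arrays. Ncf1, its organising subunit, was at 7.68, 7.53 and 7.43 against 7.37, 7.33 and 7.39 and stood apart, with a difference of 0.19 ± 0.10 (limma, unadjusted p = 0.10, Benjamini-Hochberg adjusted p = 0.88).

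**Figure D3:**
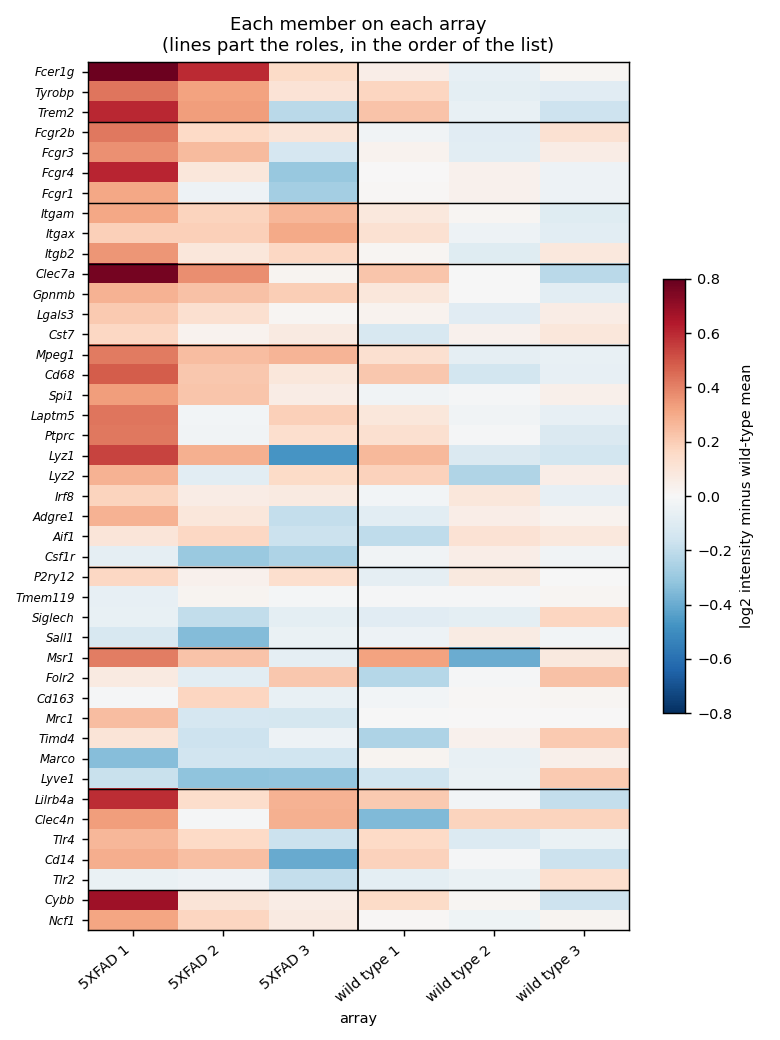
Log2 intensity of each measured member on each of the 6 arrays, minus the wild-type mean of that gene, with roles parted by lines. Red, for values above the wild-type mean, is densest on 5XFAD replicate 1, which was the highest of the 6 arrays in 31 of 43 members.

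Set side by side, the 4 plaque-associated genes had a median difference of 0.18 and the 4 resident genes one of -0.07. The means of the first list were 9.14, 8.97 and 8.86 in 5XFAD and 8.84, 8.77 and 8.74 in wild type, and those of the second were 5.87, 5.76 and 5.88 and 5.83, 5.90 and 5.93. The first list stood apart between the groups, with 5XFAD replicate 3 just above wild type replicate 1, and the second overlapped. The lists are short and the difference between them was not tested. Without the dimmest 50% of genes, which left P2ry12 and Tmem119 alone of the resident genes, the resident median was 0.05. Longer lists of the same states did not show this order: of 10 further resident genes 8 were positive with a median of 0.11, and of 17 further plaque-associated genes 10 were positive with a median of 0.05. Among the former, Gpr34 (0.31 ± 0.10) and P2ry13 (0.43 ± 0.15), both G protein-coupled receptors, were under an unadjusted p of 0.05 in limma, and the fractalkine receptor gene Cx3cr1 differed by 0.00 ± 0.10. Among the latter, the chemokine gene Ccl3 (0.62 ± 0.13), the growth factor gene Igf1 (0.43 ± 0.15) and the cathepsin gene Ctsz (0.23 ± 0.10) were under it. Apoe differed by 0.10 ± 0.09 with groups apart, and Lpl by 0.52 ± 0.32 with overlapping groups. None of these genes passed over all genes (limma, lowest Benjamini-Hochberg adjusted p = 0.34 for Ccl3).

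Genes that act beside the members were followed as lists, and 0 of them passed over all genes in limma. In the ITAM pathway 16 of 20 measured genes (80%) were positive, where 47.2% of all genes were, with a median of 0.08. An unadjusted p under 0.05 in limma, as in 6.28% of all genes, was found for 2 of the 20 (10%). These were Clec5a (0.34 ± 0.12), a receptor that signals through DAP12, and the signal regulatory gene Sirpb1a (0.34 ± 0.14). Syk, the kinase that binds the paired tyrosines, was at 7.01, 7.00 and 7.28 against 6.94, 6.90 and 6.94, a difference of 0.17 ± 0.11 with groups apart. The phospholipase gene Plcg2 and the lipid phosphatase gene Inpp5d differed by 0.07 ± 0.14 and -0.002 ± 0.10. In the axis of colony stimulating factors 3 of 6 genes were positive. Csf2ra, a receptor chain for GM-CSF, was at 8.60, 8.39 and 8.16 against 8.11, 8.06 and 7.86, a difference of 0.37 ± 0.13 (limma, unadjusted p = 0.021, Benjamini-Hochberg adjusted p = 0.70). Csf1, a ligand of Csf1r, was lower on all 5XFAD arrays (7.92, 7.85 and 7.85 against 8.05, 8.14 and 7.92), a difference of -0.17 ± 0.10. Il34, its other ligand, differed by 0.06 ± 0.11.

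The remaining oxidase subunits gave 1 positive of 3 and a median of -0.07, and Toll-like receptor signalling gave 6 of 10 and a median of 0.06, with 0 genes under an unadjusted p of 0.05 in either (limma). Ly96, the partner of Tlr4, had the largest difference there, 0.51 ± 0.34, with levels of 8.76, 8.60 and 7.40 against 7.89, 8.11 and 7.23 that overlapped. Among 12 further tissue macrophage genes 9 were positive, with a median of 0.12. Cbr2, a carbonyl reductase of tissue macrophages that other cells also make, was at 7.58, 7.71 and 7.46 in 5XFAD and 6.55, 6.95 and 6.84 in wild type. The groups were well apart, and the difference of 0.80 ± 0.13 was a 1.74-fold level that did not pass (limma, Benjamini-Hochberg adjusted p = 0.13). Ms4a7 differed by 0.33 ± 0.10 with groups apart, and the lectin gene Mgl2 by -0.43 ± 0.11 with groups apart the other way (limma, Benjamini-Hochberg adjusted p = 0.60 and 0.46).

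Most members reached their highest level on 1 array. 5XFAD replicate 1 was the highest of all 6 arrays in 31 of 43 members, where it was so in 14.3% of all genes. The median deviation of the members from their wild-type means was 0.29 on 5XFAD replicate 1, 0.10 on replicate 2 and 0.02 on replicate 3, while over all genes it was -0.01 on each. The wild-type arrays had medians between -0.01 and 0.02. The mean of all members was 7.99, 7.80 and 7.71 in 5XFAD and 7.75, 7.69 and 7.72 in wild type, so that replicate 3 lay within the wild-type range. Without 5XFAD replicate 1 the difference of Cybb was 0.08, of Cd68 0.15, of Lilrb4a 0.21, of Itgb2 0.13, of Ncf1 0.12 and of Lgals3 0.07. Leaving out a wild-type array also moved Cst7, to 0.03 without replicate 1, and Siglech, to -0.02 without replicate 3.

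Other tissues in the dissection also differed between arrays. The list of 30 skeletal muscle genes, of which 27 had a positive difference, had its highest mean on 5XFAD replicate 1 (7.41), with 6.73 and 6.34 on the other 5XFAD arrays and 5.85, 5.98 and 6.96 in wild type. With that mean as a covariate the median of the members was 0.06, and 27 of 43 were positive. Members under an unadjusted p of 0.05 were then Itgam, Itgax, Mpeg1 and Lyve1 (limma). The RPE list was lower on all 5XFAD arrays, with 9 of 10 genes negative and a median of -0.46. Of these 10 genes 8 (80%) had an unadjusted p under 0.05 in limma, all lower, where 6.28% of all genes were under it. The groups stood apart in 7 (70%), all lower, where 11.3% of all genes did so, and 0 passed over all genes. Fibroblast means were 10.11 to 10.41 against 10.09 to 10.33, with 6 of 10 genes positive. Rod means were 5.92 to 7.05 against 6.05 to 7.14, with 0 of 8 positive. T cell means were 5.46 to 5.75 against 5.69 to 5.84, with 1 of 8 positive. Mast cell means were 6.43 to 6.63 against 6.08 to 6.43, with 6 of 7 positive. The nerve and glia list was highest on 5XFAD replicate 1, at 7.09, 6.77 and 6.70 against 6.68, 6.47 and 6.82. Its 5XFAD arrays came in the same order as those of the members, as did those of the skeletal muscle, fibroblast, rod and T cell lists. Of the 5 nerve and glia genes 3 were positive, with a median of 0.01. Gfap was at 7.68, 5.54 and 6.51 in 5XFAD, while Mbp and Sox10 had their lowest 5XFAD level on replicate 1. Endothelial means were 8.62 to 8.92 against 8.77 to 8.83, with 5 of 9 genes positive, and means of B and plasma cells were 5.27 to 5.35 against 5.15 to 5.39, with 3 of 6 positive. Of 7 red blood cell genes 1 was measured, Slc4a1, at 4.83, 5.13 and 4.90 against 5.37, 5.21 and 5.42. The part of the RPE, surface epithelium, fibroblast, rod, T cell, mast cell, nerve and glia, endothelial, B cell and red blood cell lists in the members' values was not tested.

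**Figure D4:**
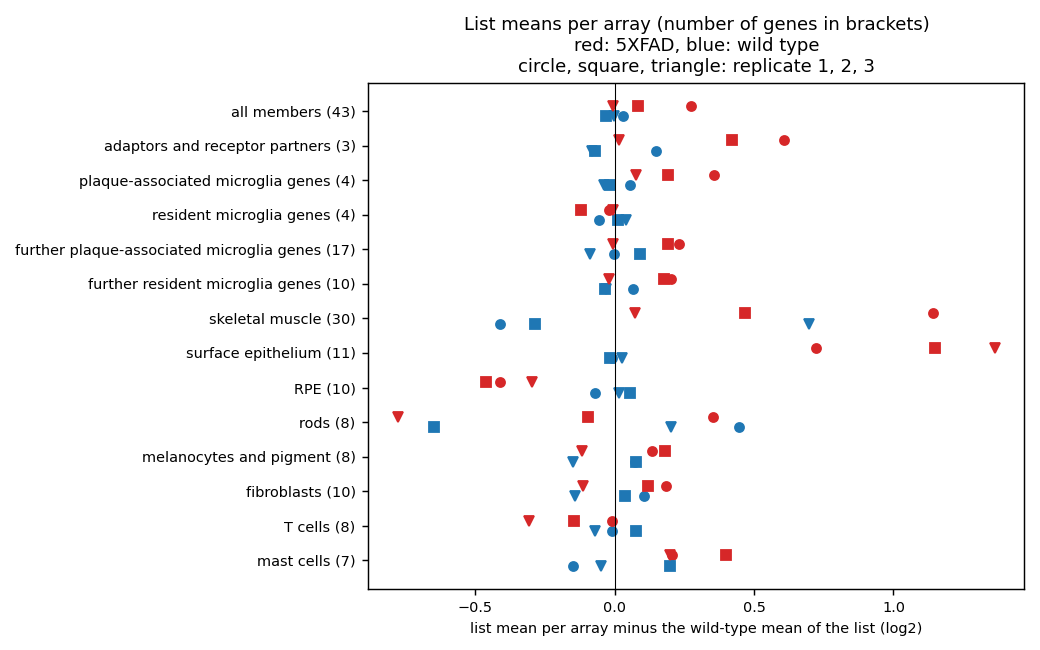
Mean of each gene list on each array minus the wild-type mean of that list (log2), 5XFAD in red above wild type in blue, with the number of genes in brackets. 5XFAD replicate 1 (red circle) has the highest mean for the list of all members, the adaptors, skeletal muscle and fibroblasts. It is also highest for the plaque-associated, further plaque-associated and further resident lists. The surface epithelium list is higher on every 5XFAD array, and the RPE list is lower.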

How the data were processed

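The deposited values are log2 intensities per probe set, which the authors made by RMA in Affymetrix Expression Console 1.1 according to the submitters' processing notes. RMA corrects background, normalizes between arrays and summarises probes. For filters, masking, pooling of animals and the genome build, nothing is given in the sources used here. Values were used as deposited. Of 33793 probe sets, 23521 had 1 symbol in the platform annotation, 1814 several and 8458 none. The probe set of highest mean was kept for the 1082 genes with several.

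Sample titles gave the groups and replicate numbers. All 22180 genes were fitted with limma 3.58.1 in R 4.3.3 by lmFit and eBayes. Tests were two-sided and had no covariate, and degrees of freedom were 4 (residual) and 5.23 (prior). P-values were adjusted over all genes (Benjamini-Hochberg, threshold 0.05), and the members were read from that fit. Precision is limited by the number of arrays. The fit was tested on simulated data with independent genes and with effects larger than any member difference. That test therefore does not bear on differences as small as those of the members. Members and lists were chosen with earlier results of these data known, so that lists are described by counts and medians. Given array by array are members at an unadjusted p under 0.05, members with groups apart and those that define each role, and Fcgr4, Lyz1 and Cybb, which were chosen after their values were seen. Alternatives tried were a block on replicate number, filters on dim genes, other normalizations, another prior, all probe sets of a gene, the mean of the skeletal muscle list as covariate and each array left out. Promoters were matched by symbol and searched for all members with an entry, and the 5 printed were chosen after the values were seen.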

Additional observations from a re-analysis of the deposited data

How the results depend on the processing

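Members passing over all genes numbered 0 under every alternative run, each probe set tested singly among them (limma; lowest Benjamini-Hochberg adjusted p = 0.25, for Fcer1g). Genes passing over all genes were 5, but 8 without the dimmest 30% of genes, 9 after median centring, 9 with a trended and robust prior, 3 with each probe set tested singly, and 3 to 19 as each array was left out (19 without wild type replicate 2, 3 without wild type replicate 3). Members under an unadjusted p of 0.05 were 7, but 3 after median centring, 4 with the skeletal muscle covariate, and 2 to 10 with an array left out. As each array was left out, the median of all members ran from 0.06 (without 5XFAD replicate 1) to 0.20 (without 5XFAD replicate 3). The plaque-associated median then ran from 0.13 to 0.21 and the resident median from -0.09 to -0.02. Without the dimmest 50% of genes, which removed Cst7, the plaque-associated median was 0.24. The resident median was 0.046 in that setting, which left 2 of its 4 genes. With the muscle covariate Adgre1 was at -0.062, Aif1 at -0.068, Fcgr4 at -0.062 and Lyz1 at -0.026. With arrays left out, Adgre1 ran from -0.050 to 0.18, Aif1 from -0.071 to 0.13, Lyz2 from -0.0043 to 0.22, Fcgr4 from -0.108 to 0.35, Lyz1 from -0.093 to 0.41, Tmem119 from -0.040 to 0.0019, Cd163 from -0.034 to 0.084 and Mrc1 from -0.14 to 0.054. The other 22 of 30 members given array by array kept their direction. With the replicate number as a block, 7 members were under an unadjusted p of 0.05 and 6 genes passed (limma). Clec7a and Cd68 were then among these members, and Gpnmb and Lyve1 were not. The block lowered the SE of Clec7a from 0.188 to 0.113 and raised that of Itgam from 0.100 to 0.108. Over all probe sets, deviations of arrays of the same number correlated at -0.12, -0.17 and 0.05, and of different numbers at -0.083 to 0.20. Such correlations cannot settle whether the numbers pair the samples. None of these 30 members has more than 1 probe set of its own. Arrays give no depth, and signal near background limits the dim members.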

Other observations

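Blood-derived myeloid cells were followed by 3 further lists, none of which held a gene that passed over all genes (limma). Of 5 measured monocyte genes 2 were positive, with a median of -0.16. Ccr2, the chemokine receptor of recruited monocytes, was at 5.61, 5.70 and 5.71 in 5XFAD and 5.90, 5.87 and 5.96 in wild type, lower on all 5XFAD arrays by -0.23 ± 0.09 (limma, unadjusted p = 0.035, Benjamini-Hochberg adjusted p = 0.75). Chil3, a chitinase-like protein of alternatively activated macrophages and neutrophils, had the largest difference, 1.19 ± 0.48, but was at 6.85, 6.30 and 4.76 against 4.80, 4.17 and 5.38, with overlap. Fn1, which monocytes share with fibroblasts, was at 10.35, 10.18 and 10.44 against 10.08, 9.94 and 9.94, a difference of 0.34 ± 0.11 with groups apart (limma, unadjusted p = 0.011, Benjamini-Hochberg adjusted p = 0.63).

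The neutrophil list was dim, with means of 4.69 to 4.79 in 5XFAD and 4.66 to 4.76 in wild type and a median difference of 0.03. Mpo (-0.29 ± 0.11) and Mmp8 (0.30 ± 0.13), both granule enzymes, were under an unadjusted p of 0.05 in limma in opposite directions. Of 7 dendritic cell genes 2 were positive. The list includes Siglech, which is also a member and is counted above among the resident microglia genes. The integrin gene Itgae was lower on all 5XFAD arrays, at 4.50, 4.56 and 4.48 against 4.76, 4.71 and 5.01 (-0.32 ± 0.11).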
